A study of Mus musculus with 4 samples.

Results

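Single-cell transcriptomes of whole mouse brain held 650 mature oligodendrocytes with more detected genes of the set Opalin, Il33, Grb14, Pex5l and Kcna1 than of the set Klk6, Anln, Hapln2, Gjb1 and Itgb4. These cells are called Opalin/Il33-type oligodendrocytes here, and the cells with the reverse excess are called Klk6/Anln-type. A gene counted as detected in a cell with at least 1 unique molecular identifier (UMI, a tag that marks a single captured RNA molecule). Each cell also had to show at least 3 of the 6 identity genes Mog, Mag, Cldn11, Ermn, Opalin and Ugt8a, and at most 1 of the 6 genes Cldn5, Flt1, Aqp4, Tmem119, P2ry12 and Snap25, which mark endothelial cells, astrocytes, microglia and neurons. The 650 cells were chosen from 10067 cells with at least 400 detected genes and at most 20% mitochondrial UMIs. Because these genes chose the cells, their levels are given below as a description with no test.

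The cells came from 4 male C57BL/6J mice at postnatal day 90, with 1 library for each animal. All brains were freed of meninges and dissociated with enzymes, so every group went through the same digestion. In 2 animals (no inhibitor 1 and 2) no drug was given. In the other 2 (inhibitor 1 and 2) the transcription inhibitors actinomycin D and triptolide were present from perfusion to digestion and the translation inhibitor anisomycin during dissection and digestion. None of the 4 animals is described as carrying a transgene, and the labels place all libraries in 1 batch. The comparison asked which transcripts differ in abundance when new RNA and protein can be made while the tissue is taken apart.

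Oligodendrocytes wrap axons of the central nervous system in myelin, a stack of lipid-rich membrane held together by proteins such as Mbp. Mature oligodendrocytes range between states that differ in a limited set of genes. Opalin encodes a transmembrane protein of oligodendrocytes, Il33 a nuclear cytokine released by damaged cells, and Grb14 an adaptor of insulin receptor signalling. Klk6 encodes a secreted serine protease, Anln the actin-binding protein anillin, and Hapln2 a link protein of the extracellular matrix at nodes of Ranvier. Immediate early genes such as Fos, Jun and Junb are switched on within minutes of a stimulus without a need for newly made protein. B2m and H2-D1 encode the light chain and a heavy chain of the major histocompatibility complex (MHC) class I, which presents peptides at the cell surface.

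The libraries contributed 141 and 131 of the cells without inhibitors and 136 and 242 with inhibitors, out of 2247, 2819, 2125 and 2876 kept cells. Summed over these cells the depth was 443514, 412740, 396287 and 612643 UMIs in the same order. The median cell held 2812, 2930, 2770.5 and 2364.5 UMIs and 1323, 1335, 1288.5 and 1114.5 detected genes, so cells of inhibitor 2 were the shallowest and the most numerous. Median mitochondrial shares lay between 6.38% and 7.27%. No barcode was shared between the cells of any pair of libraries, and 6 to 10 were shared among all kept cells of a pair. A doublet score marked 2, 2, 3 and 4 of the cells, which were kept.

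The defining markers were frequent in these cells, as the name requires, and rare in gates for other types set by their own markers. Opalin and Mog, a myelin surface glycoprotein, each had a UMI in 613 of 650 cells (94.3%). Opalin was detected in 1.29%, 1.31% and 0.928% of cells in gates for microglia, astrocytes and endothelial cells. Il33 was found in 551 cells (84.8%), against 1.11% of the microglial gate and 237 of 1827 cells of the astrocyte gate. Grb14 was found in 532 cells (81.8%), against 1.53% of the astrocyte and 13.5% of the endothelial gate. The median depth was 2626 UMIs in the oligodendrocytes and 1391, 1599 and 1829.5 UMIs in the microglial, astrocyte and endothelial gates. Il33 in astrocytes and Grb14 in endothelial cells thus stood above the other off-type shares, and neither gene was specific on its own.

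Within the 650 cells the excess of the Opalin set was usually broad. All 5 of its genes were detected in 256 cells (39.4%) and 4 of them in 259 (39.8%), while 13 cells showed only 1. Of the Klk6 set, 100 cells showed none and 9 showed 4. All 6 identity genes were present in 363 cells (55.8%) and the minimum of 3 in 16. One of the 6 genes of the rule that mark other cell types was detected in 146 cells, and none of these 6 in the other 504. At the threshold itself, 127 cells had an excess of 1 gene, 89 mature oligodendrocytes outside the set had equal numbers, and 58 had an excess of 1 gene of the Klk6 set.

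The pooled levels of the genes that chose the cells differed by steps across this range, as the choice itself requires. Pooled levels cannot show whether single cells leave a gap at the threshold, and this was not tested. Levels are UMIs of a gene per 1000000 UMIs of the same cells (CPM). Opalin was at 1634 CPM in the 331 cells with an excess of 3 to 5 genes, 1503 at an excess of 2, 957 at an excess of 1, 583 in cells with equal numbers, 321 at an excess of 1 for the Klk6 set and 34.1 in the 100 cells beyond. Klk6 ran the other way, from 3.18 CPM through 3.55, 36.1, 111 and 396 to 1150.2 CPM. Just inside the threshold the cells therefore held more Opalin and less Klk6 than just outside it, but neither gene was at its extreme there.

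Genes that took no part in the choice followed the same range. Ptgds, which encodes a prostaglandin D2 synthase made in quantity by oligodendrocytes and the leptomeninges, went in level from 15187 CPM at the Opalin end through 12739.6, 8415, 4953 and 1664 to 288 CPM at the Klk6 end. S100b, a calcium-binding protein of glia, ran from 119 CPM at the Opalin end through 146, 420, 891 and 1533 to 3323 CPM. Qdpr, an enzyme that recycles tetrahydrobiopterin, was at 3004 CPM at the Opalin end and 1238 at the Klk6 end, and Mal, a raft protein of compact myelin, at 3386 and 1432. Apod, a lipid-carrying protein of mature oligodendrocytes, was at 1078 CPM at the Opalin end and 3389 at the other. The 6 values of each gene come from pooled cells of all libraries, and deeper cells were more common toward the Klk6 end (median 2592 UMIs against 4656).

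**Figure D1:**
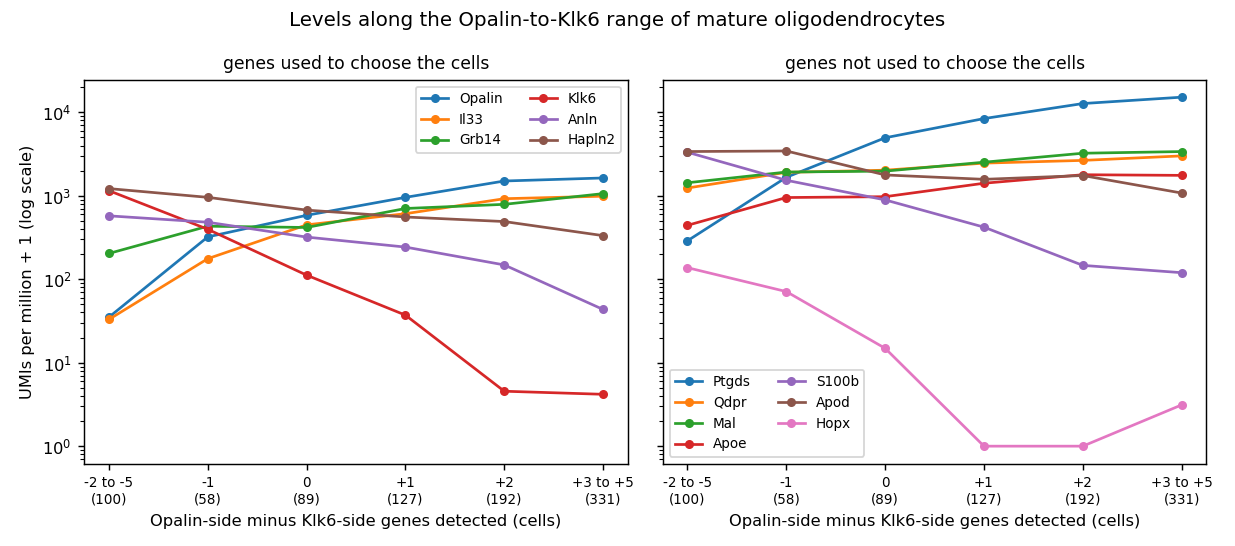
Level in CPM plus 1 (y axis, log scale) against the number of Opalin-set genes minus Klk6-set genes detected in a cell (x axis, number of cells in brackets), each point being the pooled cells of all 4 libraries. The left panel holds genes that chose the cells and the right panel genes that did not, and Ptgds goes from 288 at the left end to 15187 at the right end while S100b goes from 3323 to 119.

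Set against Klk6/Anln-type cells of the same animals, the 10 genes of the Opalin and Klk6 sets were apart in all 4 animals to different degrees. Opalin averaged 1457 CPM in Opalin/Il33-type cells and 114 CPM in the 158 Klk6/Anln-type cells. Il33 averaged 904 against 70.6 CPM, Grb14 892 against 267, the potassium channel gene Kcna1 480.0 against 182, and Pex5l, an accessory subunit of HCN channels, 677 against 452. On the other side Klk6 averaged 10.3 against 881 CPM, Hapln2 422 against 1130.1, Anln 114 against 549, Gjb1, a connexin of myelin, 347 against 1041, and the integrin gene Itgb4 43.4 against 251. Pex5l thus had the smallest separation of the 10 genes. The identity genes Mog (1465 against 1483 CPM) and Mag (1264 against 1211 CPM), both surface proteins of myelin, were at like levels in the cells of either type. Other identity genes were further apart. Ermn, a cytoskeletal protein of myelin, averaged 1236 against 1741 CPM and the tight junction gene Cldn11 3165 against 2385 CPM, each in the same direction in all 4 animals. Ugt8a, which makes galactolipids, averaged 502 against 694 CPM, but the direction turned in no inhibitor 2 (509 against 481 CPM).

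Of 3192 genes outside the rule with at least 50 CPM in the higher type, 87 (2.73%) were at least 1 log2 unit higher in Opalin/Il33-type cells with the same direction in all 4 animals, and 156 (4.89%) were lower by as much. These ratios were taken on CPM plus 5 and carry no test, since the choice of cells used the same contrast. Ptgds was at 14430.2, 12713, 12859 and 12683 CPM in Opalin/Il33-type cells (no inhibitor 1 and 2, inhibitor 1 and 2) and at 480.1, 679, 859 and 787 CPM in Klk6/Anln-type cells. Its mean log2 ratio was 4.25 ± 0.45 (SD, n = 4 animals), and the 2 types did not overlap. Ptgds had a UMI in 629 of the 650 cells (96.8%) and in 21.1%, 23.7% and 21.0% of the microglial, astrocyte and endothelial gates, a level shared by the off-type gates.

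The other leading genes on the Opalin side were scarcer. C030029H02Rik, a non-coding transcript, averaged 363 CPM against 43.3 CPM, with a mean log2 ratio of 2.97 ± 0.59 (SD, n = 4 animals). Mcam, a cell adhesion molecule, averaged 100.1 against 2.50 CPM (log2 ratio 3.98 ± 0.97). Cntn1, a contactin that oligodendrocytes and neurons use for axon contact, averaged 90.5 against 5.35 CPM (3.45 ± 0.91). The planar polarity gene Prickle1, the phosphatase gene Dusp10, the zinc transporter gene Tmem163, the protocadherin gene Pcdh17 and the antisense transcript 9630013A20Rik were also among the 10, with mean ratios from 2.90 to 3.66. Of these, 9630013A20Rik came mostly from 8 cells that lacked Il33, and it was higher in the 89 cells with equal numbers (346 CPM) than in Opalin/Il33-type cells (84.4 CPM), as was Tmem163 (100.4 against 63.3 CPM). On the Klk6 side S100b averaged 186 CPM in Opalin/Il33-type cells and 2776 CPM in Klk6/Anln-type cells (log2 ratio -3.87 ± 0.21), and the groups were far apart in every animal. The homeodomain genes Hopx (1.04 against 114 CPM) and Nkx2-9 (0.631 against 95.3 CPM) had 2 and 1 UMIs among all 650 cells. Rab37, Gm32122, Uchl1, Mgst3, Acy3, Ncs1 and Npb completed the 10 on that side, each at or below 25.0 CPM in Opalin/Il33-type cells.

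The share of Opalin/Il33-type cells among all mature oligodendrocytes was compared between groups. It was 141 of 206 (68.4%, exact 95% binomial interval 61.6 to 74.7%) and 131 of 172 (76.2%, 69.1 to 82.3%) without inhibitors. With inhibitors it was 136 of 198 (68.7%, 61.7 to 75.1%) and 242 of 321 (75.4%, 70.3 to 80.0%). The means were 72.3% ± 5.46 and 72.0% ± 4.74 (SD, n = 2 each), a difference of 0.267 percentage points (exact two-sided permutation p = 1). The 2 animals of a group differed by more than the groups did, and with 2 against 2 the smallest p this test can give is 0.333. The intervals here and below cover counting error only. Among all kept cells the type made up 6.28% and 4.65% without and 6.40% and 8.41% with inhibitors, with no overlap of the groups and an exact permutation p of 0.333, the smallest possible.

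Without inhibitors 18 of 5109 tested genes (0.352%) were higher and 3 (0.0587%) lower in Opalin/Il33-type cells. The test was edgeR's quasi-likelihood F test on UMIs summed per animal, and a gene was called at a p, adjusted by Benjamini-Hochberg, under 0.05 if its log2 fold change (without over with inhibitors) also exceeded 0.58 in size. The median log2 fold change of all tested genes was -0.01, 494 genes (9.67%) had an unadjusted p under 0.05, and 2015 (39.4%) did not overlap between the pairs of animals. The 18 genes held immediate early genes, an inducible chaperone, MHC class I genes, globins, an antisense transcript with its host gene, and broadly detected genes of membrane traffic and metabolism. The count depended on the test and on 1 library: DESeq2 called 3 genes (Fos, Cd81 and 9630013A20Rik), and without no inhibitor 1 edgeR called 43, 26 higher and 17 lower. Leaving out one of the other 3 animals gave 16 to 29. Each of these fits leaves 1 animal in an arm, which is assumed to vary like the remaining pair. Calls gained or lost this way, here and below, are therefore no test of that animal. DESeq2 was run on all 13961 genes with a UMI, a larger set than the 5109 of the main test. On those 13961 genes edgeR without its count filter called 31.

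**Figure D2:**
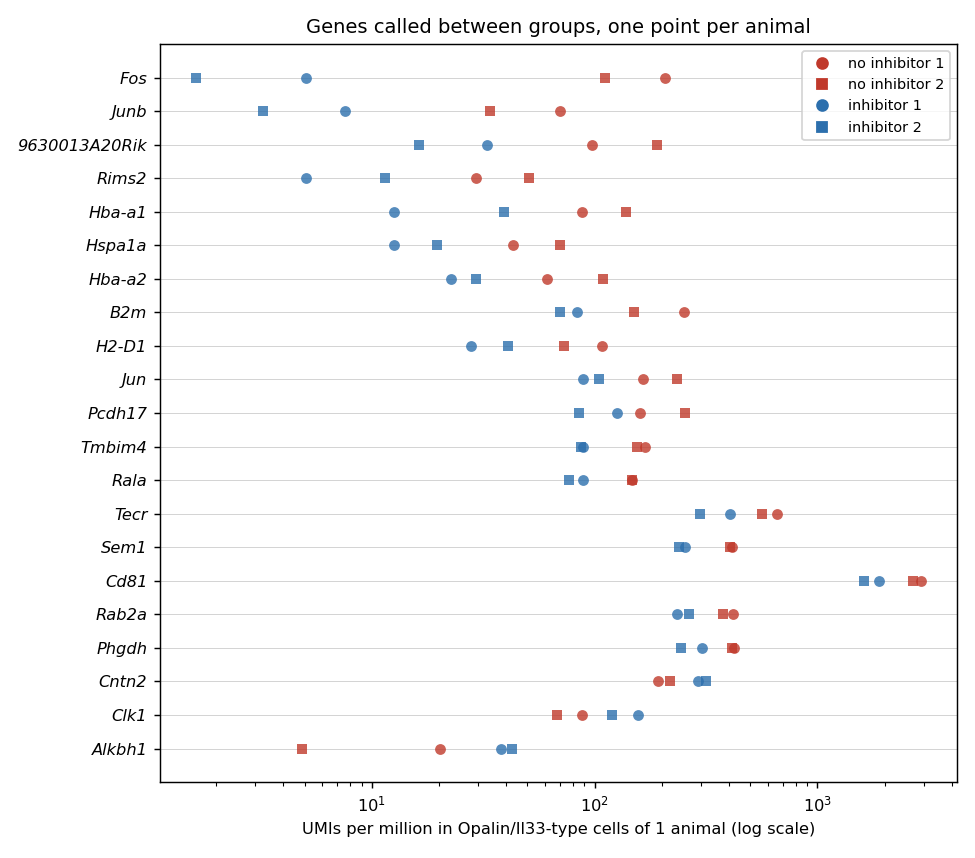
CPM of Opalin/Il33-type cells (x axis, log scale) of the 21 called genes (y axis), with red points for animals without and blue points for animals with inhibitors, circles for replicate 1 and squares for replicate 2. The groups do not overlap for any of the 21 genes, which were called on these same values, so this is no separate support. Of all tested genes 39.4% do not overlap. Fos shows the widest separation.

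Fos had the largest difference and rose from near absence. Its sums were 92 and 46 UMIs without and 2 and 1 UMIs with inhibitors, or 207 and 111 CPM against 5.05 and 1.63 CPM. All animals without inhibitors lay far above both with them, and the log2 fold change was 5.58 (SE 0.44, edgeR adjusted p 7.73e-20). It was called under all 15 alternatives in which it was tested. DESeq2 gave Fos a log2 fold change of 5.70 with a wider error (SE 0.96, DESeq2 adjusted p 3.63e-05). In cells with 0 haemoglobin genes, a setting given below, Fos was too low to test, as were Junb and Hspa1a. Junb, a partner of Fos in the AP-1 transcription factor, had 31 and 14 UMIs without and 3 and 2 with inhibitors (log2 fold change 3.28, SE 0.52, edgeR adjusted p 1.37e-06). Jun, another partner of Fos in AP-1, was detected more widely, with 165 and 235 CPM without and 88.3 and 104 CPM with inhibitors (log2 fold change 0.97, SE 0.19, edgeR adjusted p 0.000662). Hspa1a, the stress-inducible chaperone Hsp70, was at 42.8 and 70.3 CPM against 12.6 and 19.6 CPM (log2 fold change 1.67, SE 0.40, edgeR adjusted p 0.0131). Of these genes DESeq2 called only Fos, and Junb was lost without no inhibitor 1 (2.65, edgeR adjusted p 0.554). Jun was lost without no inhibitor 2 (0.70) or inhibitor 1 (0.86), and Hspa1a without any animal but no inhibitor 1 (1.29 to 2.12).

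The Fos signal came from a small number of oligodendrocytes. A Fos UMI was found in 12 of 141 and 7 of 131 cells without inhibitors and in 1 of 136 and 1 of 242 with inhibitors. At least 3 Fos UMIs, a limit set after the values were seen, were found in 4 cells of each animal without inhibitors and in 0 of 136 and 0 of 242 cells with them, which allows shares up to 2.21% and 1.24%. These 8 cells held 84 of 92 and 42 of 46 of the Fos UMIs in their animals (91.3% in each). Outside them 8 and 4 Fos UMIs remained without inhibitors, against 2 and 1 with inhibitors. In the microglial gate Fos was detected in 19.9%, 12.5%, 0.493% and 0.246% of cells in the same order of libraries. After each cell was thinned to 1000 UMIs, which left out 4, 0, 3 and 2 cells, Fos was found in 7 of 137 and 6 of 131 oligodendrocytes without inhibitors. It was then in 0 of 133 and 0 of 240 with them, which allows up to 2.26% and 1.25%.

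The same cells carried other genes of the response. The 8 cells held 4 to 29 Fos UMIs each, 0 to 11 of Junb and 0 to 15 of Jun, and Egr1, a zinc finger factor of the same early response, was in 5 of them. Over all 650 cells Junb was found in 9 of the 21 cells with Fos (42.9%) and in 1.27% of the rest, and Egr1 in 23.8% and 0.954%. The cells with Fos had a median of 3220.0 UMIs and the others 2612. In the 8 cells Mog had 4 to 10 UMIs and Ptgds 13 to 75, while the whole microglial list summed to 0 to 3 UMIs and the astrocyte list to 1 to 7. One cell of no inhibitor 2 held 33 UMIs of the mural list, and none of the 8 was marked as a doublet. Each also held 1 to 3 haemoglobin UMIs, which were in 90 of 141 and 92 of 131 cells without and 35 of 136 and 77 of 242 with inhibitors. The part of such off-type RNA in the Fos difference was not tested.

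**Figure D3:**
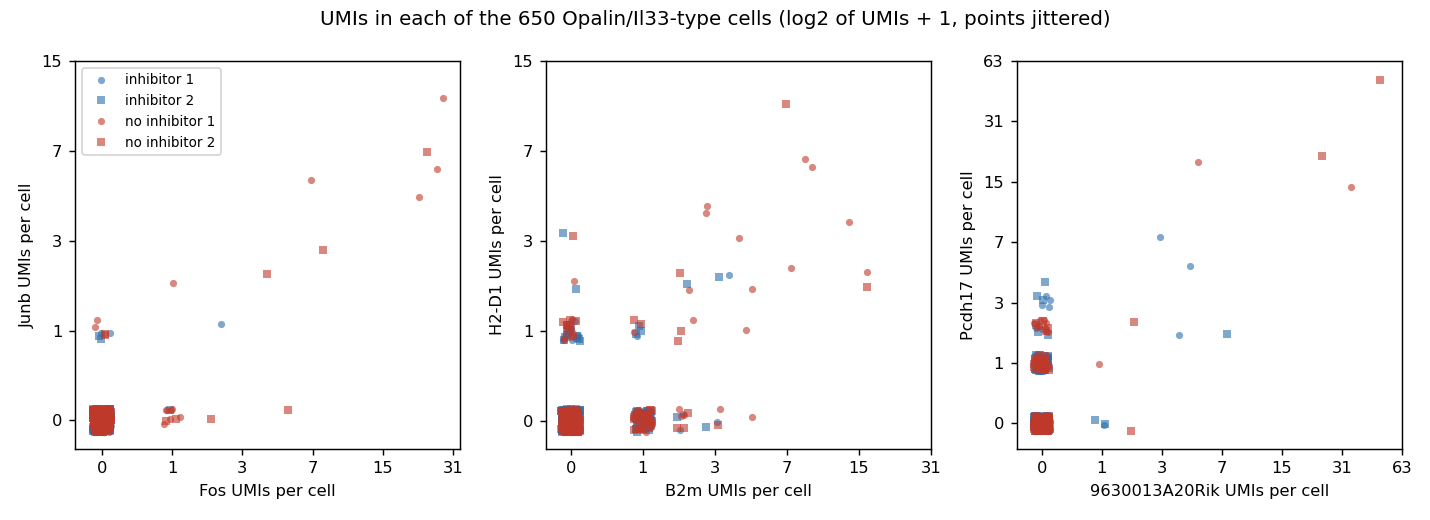
UMIs of gene pairs in each of the 650 cells (both axes on a log2 scale of UMIs plus 1, points jittered; red without and blue with inhibitors, circles replicate 1 and squares replicate 2). Left, the 8 cells with 3 or more Fos UMIs are all from animals without inhibitors and 7 of them carry Junb; middle, the cells highest in B2m often carry H2-D1; right, the cells high in 9630013A20Rik come from all 4 animals and carry Pcdh17.

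The promoters of Fos, Junb and B2m are shown because these genes stand for the early factors and the MHC class I genes among the calls. Each line gives the 250 bases before the RefSeq start on GRCm38.p6, 5′ to 3′ on the gene's strand, from chr12:85473640-85473889 (+) for Fos, chr8:84978749-84978998 (-) for Junb and chr2:122147437-122147686 (+) for B2m. Capitals mark matches on either strand of TGACG (the first letters of the cyclic AMP response element), of the NF-kB motif, of TATAAA and of an interferon response-like motif (GAAA, any 2 bases, GAAA).
Fos: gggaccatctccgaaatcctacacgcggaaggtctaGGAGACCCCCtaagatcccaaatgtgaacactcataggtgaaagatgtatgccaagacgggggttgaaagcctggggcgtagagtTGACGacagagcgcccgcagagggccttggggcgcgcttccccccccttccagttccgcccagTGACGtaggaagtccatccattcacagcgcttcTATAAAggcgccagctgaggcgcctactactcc
Junb: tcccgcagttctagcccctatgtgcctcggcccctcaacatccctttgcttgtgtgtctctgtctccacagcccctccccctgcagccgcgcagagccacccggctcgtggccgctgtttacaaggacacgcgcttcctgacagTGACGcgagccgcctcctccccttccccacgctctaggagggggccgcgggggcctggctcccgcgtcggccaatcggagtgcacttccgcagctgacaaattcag
B2m: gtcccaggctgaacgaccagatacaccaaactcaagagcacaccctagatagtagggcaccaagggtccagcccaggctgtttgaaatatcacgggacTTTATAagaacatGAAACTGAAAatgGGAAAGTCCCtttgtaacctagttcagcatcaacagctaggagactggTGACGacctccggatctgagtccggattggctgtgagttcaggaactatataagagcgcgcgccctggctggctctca
Fos and Junb carried TGACG at 129 and 66 and at 106 bases before the start, and B2m at 78. B2m also carried the interferon response-like match at 139 and the NF-kB match at 126 bases before the start. Of 32851 promoters of this length, 17.8% held TGACG, 3.90% the NF-kB motif, 12.4% TATAAA and 2.98% the interferon response-like motif. The full element TGACGTCA (1.55% of promoters) and the AP-1 motif TGANTCA (6.75%) were in none of the 17 called genes with a promoter in the table, and TGACG was in 5 of them. A match gives the letters only.

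B2m and H2-D1 rose together with a wider spread over cells. B2m had 112 and 62 UMIs without and 33 and 43 with inhibitors, or 253 and 150.2 against 83.3 and 70.2 CPM. The animals did not overlap and the log2 fold change was 1.37 (SE 0.21, edgeR adjusted p 9.99e-07). H2-D1 had 48 and 30 UMIs against 11 and 25 (log2 fold change 1.30, SE 0.29, edgeR adjusted p 0.00481). Near-identical MHC genes exist, so reads of H2-D1 may be divided or discarded by the counting. DESeq2 called neither gene (adjusted p 0.792 for B2m), and H2-D1 was lost without no inhibitor 1 (0.97) or inhibitor 1 (1.08), with a margin of at least 2 genes between the sets (1.08) and in cells with 0 of the 6 other-type genes (1.17). B2m was lost in cells with 0 microglial genes (1.60, SE 0.96, edgeR adjusted p 0.762) and with 0 haemoglobin genes (1.35, SE 0.32, edgeR adjusted p 0.0995). B2m was detected in 38 of 141 and 34 of 131 cells without and 26 of 136 and 37 of 242 with inhibitors, and in 95.4% of the microglial and 83.0% of the endothelial gate. In cells thinned to 1000 UMIs it was in 18 of 137 and 17 of 131 without and 7 of 133 and 17 of 240 with inhibitors.

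A limit of 4 B2m UMIs, set after the values were seen, picked 9, 2 and 1 cells in no inhibitor 1, no inhibitor 2 and inhibitor 1 and 0 of 242 in inhibitor 2, which allows up to 1.24%. These 12 cells held 72 of 112, 22 of 62, 4 of 33 and 0 of 43 B2m UMIs, and outside them 40, 40, 29 and 43 UMIs remained. No inhibitor 1 thus supplied most of the high cells. They held 0 to 11 UMIs of H2-D1 and 0 to 16 of the interferon-inducible gene Ifi27l2a, with 0 to 5 UMIs of the microglial and 0 to 9 of the astrocyte list. One of them, a cell of no inhibitor 1 with 9 astrocyte UMIs and 0 of Mog, was marked as a doublet. Over all cells H2-D1 was found in 27 of the 135 cells with B2m and in 7.77% of the rest. By library the share among B2m cells was 34.2% and 20.6% without and 7.69% and 13.5% with inhibitors, from 13 of 38, 7 of 34, 2 of 26 and 5 of 37 cells. H2-K1, another class I heavy chain, had 8, 8, 8 and 6 UMIs and was too low to test. Of 8 genes of the immune oligodendrocyte list 3 could be tested, B2m, H2-D1 and Ifi27, whose log2 fold change of 0.57 had an edgeR adjusted p of 0.169.

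The antisense transcript 9630013A20Rik was called and lay almost wholly in a few cells with precursor genes. 9630013A20Rik had 43 and 79 UMIs without and 13 and 10 with inhibitors (log2 fold change 2.58, SE 0.31, edgeR adjusted p 5.39e-09). By DESeq2 the transcript had the same fold with a wider error (SE 0.56, DESeq2 adjusted p 0.0231). It is annotated as antisense on chromosome 14 from 84458639 to 84476424 on the minus strand of GRCm38, inside Pcdh17 (84443563 to 84539002, plus strand), and the 3′ counting used strand. Pcdh17 had 71 and 105 UMIs against 50 and 52 (log2 fold change 0.96, SE 0.19, edgeR adjusted p 0.000883). Pcdh17 was in 126 of the 650 cells. Rims2, a scaffold protein of vesicle release sites, had 13 and 21 UMIs against 2 and 7 (log2 fold change 2.07, SE 0.52, edgeR adjusted p 0.0200). Pcdh17 was lost without no inhibitor 2 (0.62) or inhibitor 2 (0.70), and Rims2 without no inhibitor 2 (1.66) or inhibitor 1 (1.71).

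Only 8 cells, 2, 2, 3 and 1 per library, held 137 of the 145 9630013A20Rik UMIs at a limit of 3 UMIs that was set after the values were seen. Cells of this kind were thus present in both groups, with 5 to 51 UMIs of the transcript in the 4 cells without and 3 to 8 in the 4 with inhibitors. Depth moved with this, as the 4 cells without inhibitors held 7384 to 10366 UMIs in all and the 4 with them 1320.0 to 5489, and its part in the difference was not tested. They held 2 to 52 UMIs of Pcdh17, 0 of Il33 and 0 to 33 of Opalin, and showed 1 to 3 genes of the Opalin set and 0 of the Klk6 set. Gpr17, a receptor of committed precursors, was in 7 of the 8, and Enpp6, an enzyme of newly formed oligodendrocytes, in 5. By the rule they count among the 650 cells, but they lacked its name gene Il33. When cells with 2 or more detected precursor genes were left out (3, 2, 3 and 3 cells, a step added after seeing the data), 9630013A20Rik and Rims2 became too low to test, Pcdh17 was no longer called, and 14 genes remained called. Of 10 precursor genes 3 were tested and 0 called, with Gpr17 at a log2 fold change of 1.75 (edgeR adjusted p 0.0718).

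The remaining higher genes were spread over many cells. Cd81, a tetraspanin of the plasma membrane, was in 624 of 650 cells and at 2922 and 2692 CPM without against 1888 and 1611 CPM with inhibitors (log2 fold change 0.64, SE 0.10, edgeR adjusted p 9.99e-07). Tecr, the last enzyme of very long chain fatty acid elongation, was in 423 cells and at 661 and 565 against 404 and 297 CPM (log2 fold change 0.79, SE 0.12, edgeR adjusted p 1.15e-06). Both were called in 14 of 16 alternatives. Sem1, a small subunit of the proteasome lid, was at 415 and 407 against 255 and 240 CPM (log2 fold change 0.69), and Rab2a, a GTPase of traffic between endoplasmic reticulum and Golgi, at 417 and 378 against 235 and 264 CPM (0.61). Phgdh, the first enzyme of serine synthesis, was at 422 and 414 against 303 and 243 CPM (0.59) and is named after its value was seen, as it lay just outside the 20 largest. Tmbim4, a Golgi membrane protein, had a log2 fold change of 0.84 and the GTPase gene Rala one of 0.80. In Cd81, Tecr, Sem1, Rab2a and Phgdh the animals of each group lay nearer to each other than to the other group, though Tecr varied among animals with inhibitors. The 10 cells highest in Cd81 held 12.6% of its UMIs, against 92.2% for Fos. Without inhibitor 2, Cd81 (0.57), Tecr (0.60), Sem1 (0.68) and Phgdh (0.46) were no longer called, nor was Rab2a without no inhibitor 1 (0.53) or inhibitor 1 (0.52) and Phgdh without no inhibitor 1 (0.58). Tmbim4 was lost without any animal but no inhibitor 2 (0.77 to 0.87) and Rala without any one (0.73 to 0.87).

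Cntn2, Clk1 and Alkbh1 were lower without inhibitors. Cntn2, a contactin of the axon and glial membrane beside the node, was at 192 and 218 CPM without and 290.2 and 317 with inhibitors (log2 fold change -0.63, SE 0.15, edgeR adjusted p 0.0122). Clk1, a kinase of splicing factors, was at 87.9 and 67.8 against 156 and 119 CPM (-0.83, SE 0.22, edgeR adjusted p 0.0391). Alkbh1, a demethylase of nucleic acids, had 9 and 2 UMIs against 15 and 26 (-1.69, SE 0.45, edgeR adjusted p 0.0365). Groups did not overlap in any of them. Cntn2 was lost without no inhibitor 1 (-0.54) or inhibitor 2 (-0.51), and Clk1 and Alkbh1 without any animal but no inhibitor 1, with the smallest values without no inhibitor 2 (-0.65 and -1.03).

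Transcripts of other cell types were present in the sums and some differed between groups. The adult alpha globin genes Hba-a1 (39 and 57 UMIs without, 5 and 24 with inhibitors, log2 fold change 1.91) and Hba-a2 (27 and 45 against 9 and 18 UMIs, 1.59) were called, and their near-identical sequences make the split between them uncertain. Hba-a2 was lost without no inhibitor 2 (1.14). The 5 erythrocyte genes summed to 329, 620.2, 106 and 163 CPM, so the groups did not overlap. In no inhibitor 2 a single cell held 30 of the 57 Hba-a1 UMIs. In cells with 0 haemoglobin UMIs (51, 39, 101 and 165 cells), a step added after seeing the data, 7 genes were called, 5 higher and 2 lower, of which 2 were among the 21. In cells with 0 UMIs of the microglial list (70, 47, 73 and 137 cells), likewise added, 2 genes were called, Fos and Tecr. Fewer cells and fewer genes enter these fits (3225 and 3144 tested), and folds were often as large where the call was lost. With 0 microglial genes B2m stood at 1.60, Jun at 1.08, Tmbim4 at 0.90 and Hba-a1 at 2.70, while Cd81 (0.54) and Sem1 (0.47) were lower than before. With 0 haemoglobin genes B2m stood at 1.35, H2-D1 at 1.28 and Jun at 0.86, while Fos, Junb and Hspa1a were too low to test.

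The choroid plexus list summed to 7411, 2634, 1287 and 2053 CPM. Ttr, the thyroid hormone carrier made by choroid plexus, had a UMI in 642 of the 650 cells, and 1 cell of no inhibitor 1 alone held 2558 of that animal's 3193 Ttr UMIs. Ttr was not called (edgeR adjusted p 0.698). The microglial list summed to 309, 443, 252 and 362 CPM and the astrocyte list to 604, 821, 729 and 749 CPM, both overlapping between groups, and the endothelial (67.6 to 126 CPM), neuronal (60.6 to 103 CPM) and mural (27.1 to 102 CPM) lists were lower. The part of these transcripts in the 21 calls was not tested.

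Lists of genes with a shared role were then counted, against 0.411% of all tested genes called and a median log2 fold change of -0.01 over all. Of 12 tested immediate early genes 3 were called higher (Fos, Jun and Junb) and none lower. The log2 fold change was above 0 in 5 of the 12 and below 0 in 7, with a median of -0.01. The most abundant member, Jund, was at 850, 770.5, 843 and 828 CPM in the 4 animals (log2 fold change -0.09), and Rhob and Dusp1 stood at 0.21 and 0.62 without passing. Egr1 had 8, 2, 3 and 1 UMIs and was too low to test. Fos, Junb and Hspa1a passed the count filter only through the animals without inhibitors. Calls and medians of lists that hold these genes, here and below, lean toward a rise for that reason. They are no separate support for it. Of the 25 genes of a consensus list from dissociated microglia 10 were tested and 4 were called higher, with Hspa1a beside the 3 factors and a median of 0.47. A list of 19 genes picked by the study from these same libraries, longer by 1 gene than its text states for a reason not known, had 6 tested and 4 higher with a median of 1.66, which is not independent evidence.

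Chaperones and stress genes beyond Hspa1a did not pass. Of 10 heat shock genes 1 was called, with a median of 0.18, and the constitutive chaperones Hsp90ab1, Hsp90aa1 and Hspa8 had log2 fold changes of 0.23, 0.28 and 0.01. The groups did not overlap in 7 of the 10, against 39.4% of all tested genes. An unadjusted edgeR p under 0.05 was found for 4, against 9.67% of all. Of 4 genes of the integrated stress response none was called (Ddit3 -0.22, Xbp1 0.34). Of 8 glucocorticoid-responsive genes none was called, and the lowest value was that of Sgk1, a kinase induced by steroids, at 367 and 228 CPM without and 626 and 429 with inhibitors (log2 fold change -0.83, edgeR adjusted p 0.142).

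The genes of myelin and of the mature state differed by small amounts. Of 15 myelin genes 1 was called, Cntn2, and the median was 0.12, with 9 values above 0 and 6 below. The groups did not overlap in 12 of the 15, against 39.4% of all tested genes. An unadjusted edgeR p under 0.05 was found for 6, against 9.67% of all. Mbp, which compacts the myelin membrane, was at 9449.5, 10886, 11499 and 11126 CPM (no inhibitor 1 and 2, inhibitor 1 and 2; log2 fold change -0.20, SE 0.09). Cryab, a small heat shock protein of oligodendrocytes, had a value of 0.21. Of 8 genes of late oligodendrocytes none was called. Ptgds had a log2 fold change of 0.04 (SE 0.09, edgeR adjusted p 0.937), and Apod had 0.39 with an edgeR adjusted p of 0.0403, under the fold limit. The 5 genes of the Opalin set stood between -0.40 (Grb14) and 0.15 (Il33), with 0 called.

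Genes of lipid synthesis, transcription factors, channels and iron handling were not called either. Of 21 tested genes of sterol and lipid synthesis the median was 0.01, with Scd2, a fatty acid desaturase, at -0.15, Pllp, the membrane protein plasmolipin, at 0.27, and Fa2h, which makes the hydroxylated lipids of myelin, at -0.10. Of 10 lineage factors the median was -0.05, with Olig1 at -0.11 and the myelin regulator Myrf at -0.20. Of 7 channel and transport genes the median was -0.10, with the connexin gene Gjc3 at -0.10. Of 5 iron genes the median was -0.16, with the ferritin heavy chain gene Fth1, at 27282 to 33181 CPM in the 4 animals, at -0.21. None of these lists had a member past the thresholds, which stands beside 0.411% of all tested genes. Replication-type histones and snoRNA host genes had 2 tested genes each and 0 calls.

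**Figure D4:**
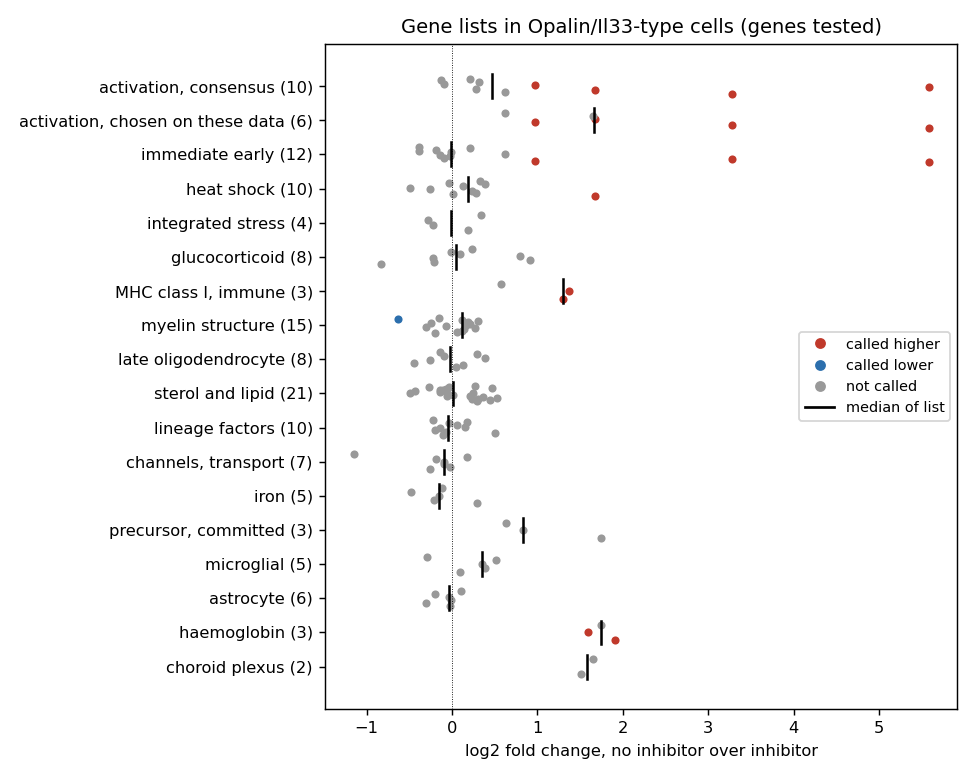
Log2 fold change without over with inhibitors (x axis) of each tested gene in gene lists (y axis, number of genes tested in brackets), with red for called higher, blue for called lower, grey for not called and a black bar for the list median. Called genes sit in the activation, immediate early, heat shock, MHC class I and haemoglobin rows and 1 in the myelin row, while the medians of the myelin, late oligodendrocyte, lipid and factor rows lie between -0.05 and 0.12.

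In Klk6/Anln-type cells of the same animals (45, 22, 46 and 45 cells) 12 of 2939 genes (0.408%) were higher and 2 (0.0681%) lower without inhibitors, 0.476% in all. Both types come from the same libraries, so their values stand side by side and are not independent. Fos had a log2 fold change of 5.50 there (36 and 14 UMIs against 1 and 0) and 5.58 in Opalin/Il33-type cells. All 14 of those UMIs of no inhibitor 2 came from 1 of its 22 cells, and either fold stands over 0 to 2 UMIs with inhibitors. Jun had 2.12 and 0.97, Cd81 0.85 and 0.64, and Tecr 0.84 and 0.79 in the same order, and all 4 genes were called in both types. Junb had 1 UMI in each animal without inhibitors among Klk6/Anln-type cells. DESeq2 called 0 genes in Klk6/Anln-type cells, with 44 at an unadjusted p under 0.05, and edgeR called 8, 26, 8 and 4 when no inhibitor 1 and 2 and inhibitor 1 and 2 were left out in turn.

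The difference of the effect between the types was tested with an interaction term and the animal as a block. Of 4859 genes 3 (0.0617%) were called, Il33, B2m and Ptgds, all with a higher value in Opalin/Il33-type cells, and 226 (4.65%) had an unadjusted p under 0.05. B2m had a log2 fold change of 1.37 in Opalin/Il33-type and -0.90 in Klk6/Anln-type cells (difference 2.36, SE 0.46, edgeR adjusted p 0.00135). In Klk6/Anln-type cells it was at 55.0 and 75.4 CPM without and 77.1 and 155 CPM with inhibitors and was not called. It was found there in 6 of 45 and 6 of 22 cells without inhibitors. With inhibitors it was found in 9 of 46 and 12 of 45 of these cells. Il33 was one of the genes that chose the cells, so its difference is no result apart from that choice. DESeq2 called 0 genes in this comparison, with 8 at an unadjusted p under 0.05. Without no inhibitor 1 edgeR called 0 of them (B2m 1.57, edgeR adjusted p 0.813) and without no inhibitor 2 it called 6.

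**Figure D5:**
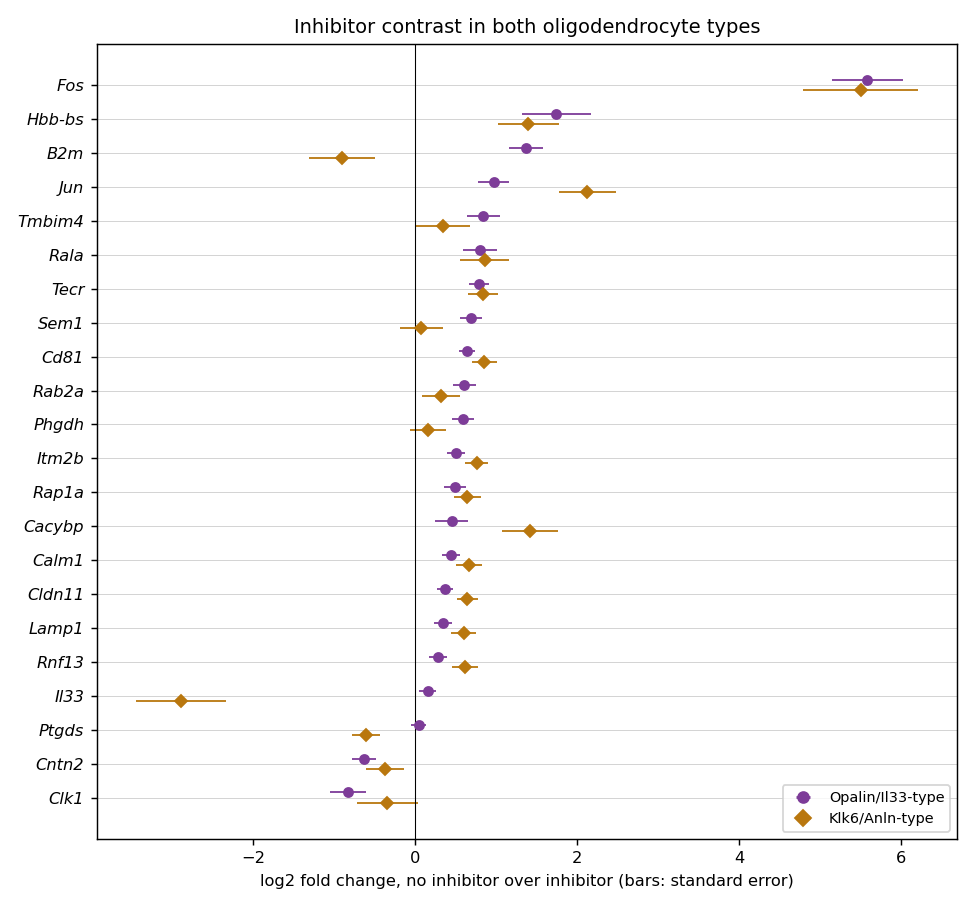
Log2 fold change without over with inhibitors (x axis, bars are standard errors of the edgeR fit) for genes called in either type or in the interaction and tested in both types (y axis), with purple circles for Opalin/Il33-type and ochre diamonds for Klk6/Anln-type cells. Fos lies at 5.58 and 5.50, while B2m lies at 1.37 in Opalin/Il33-type and at -0.90 in Klk6/Anln-type cells, where it was not called.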

How the data were processed

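The authors dissociated whole brains, made 10x Genomics 3′ version 2 libraries and counted UMIs with Cell Ranger 3.0.0 on mm10 (GRCm38), per the labels and the study's methods. They deposited raw counts of UMIs per gene and barcode for 4 libraries, with 5134359 to 7529804 UMIs each. Further filtering by the authors was not applied to these files. Members and gene lists were chosen with earlier results of these data known. Gene positions come from GENCODE on GRCm38 and promoters from RefSeq on GRCm38.p6.

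UMIs of the chosen cells were summed per animal, since cells are not replicates, and the sums were tested by a robust quasi-likelihood fit with the group alone (edgeR 4.0.16, R 4.3.3, genes kept by filterByExpr, TMM scaling). Depth per cell limits detection, so shares were repeated on counts thinned to 1000 UMIs. Doublets were scored with scrublet in scanpy 1.11.5 at 0.8% per 1000 barcodes. DESeq2 1.42.0, other size factors, no filter, stricter cell rules and leaving out each animal were alternatives. On data simulated from the sums of Opalin/Il33-type cells, the fit called 98% of genes changed by 1 log2 unit and 100% of those changed by 2. The changed genes were drawn only from those with high mean counts, and all genes had the same dispersion. These shares do not cover low genes such as Junb or genes concentrated in few cells such as Fos. Named genes were the 20 called genes with the largest fold change and no overlap, the most abundant and called members of each list, the 10 largest ratios in each direction against Klk6/Anln-type cells, and the genes of the rule. Python 3.11.15, numpy 2.4.6, scipy 1.17.1 and pandas 2.3.3 were used. Some genes that the naming rule selects are not reported here.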

Additional observations from a re-analysis of the deposited data

Results flagged for a closer look

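The inhibitor effect differed between the oligodendrocyte types for 3 genes by edgeR's interaction test. For B2m the log2 fold change was higher in Opalin/Il33-type cells by 2.36 (SE 0.46, edgeR adjusted p 0.00135). For Il33 the difference was 3.04 (SE 0.55, edgeR adjusted p 0.000655), from 0.15 in Opalin/Il33-type to -2.89 in Klk6/Anln-type cells, where it had 1 and 4 UMIs without and 35 and 10 with inhibitors. Il33 was among the genes that chose the cells, so this difference is no result apart from that choice. For Ptgds, the abundant prostaglandin synthase, the difference was 0.64 (SE 0.14, edgeR adjusted p 0.0160), from 0.04 to -0.60, and in cells with 0 of the 6 other-type genes of the rule it was 0.08 (edgeR adjusted p 0.992), against 1.37 in cells with 0 microglial and 1.15 with 0 haemoglobin genes, where it was called (edgeR adjusted p 0.000263 and 0.0394). Without no inhibitor 1 none of the 3 was called (B2m 1.57, Il33 1.84, Ptgds 0.25), and without inhibitor 1 Il33 (2.07) and Ptgds (0.56) and without inhibitor 2 B2m (1.64) and Ptgds (0.68) were also lost. The part of RNA from other cells in these differences was not tested.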

How the results depend on the processing

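Of the 21 calls in Opalin/Il33-type cells, DESeq2 gave 3 (76 genes at an unadjusted p under 0.05), a margin of at least 2 genes between the sets 9, 0 of the 6 other-type genes of the rule 10, and, added after seeing the data, no microglial gene 2 and no haemoglobin gene 7. Leaving out 1 animal, which leaves 1 in its arm assumed to vary like the other pair, gave 16 to 43. The replicate number did not pair the animals (correlation of deviations 0.0057), and with the replicate block 29 genes were called, 20 of them among the 21, with 15 in Klk6/Anln-type cells and 2 in the interaction. The other settings gave 14 to 31. Pcdh17 reversed to -0.45 (edgeR adjusted p 0.706) in cells with no microglial gene. In Klk6/Anln-type cells the 14 calls became 0 with DESeq2, 8 without the filter, 6 with the margin, 3 with no microglial gene, and 4 to 26 without 1 animal. The 3 interaction calls became 0 with DESeq2, 0 with the margin (edgeR, 164 at an unadjusted p under 0.05), 1 without cells of high doublet score, and 0 to 6 without 1 animal, with 0 when no inhibitor 1 was left out. The difference in share of 0.267 points reversed to -0.444 on thinned counts and -1.03 with 0 of the 6 other-type genes, and ran from -3.59 to 4.12 without 1 animal. The causes were not tested, though fits with fewer cells also tested fewer genes. Depth limits low genes: Junb, Hspa1a, Rims2 and Alkbh1 rest on 31 UMIs or fewer in each animal. With 2 animals per group, no call has a check beyond these alternatives.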
